A study of Arabidopsis thaliana with 4 samples.

Results

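The genes described here are the members of 2 Arabidopsis enzyme families, the beta-glucosidases (BGLU) and the serine carboxypeptidase-like proteins (SCPL). They were taken from the array annotation as every probe set listed with exactly 1 gene whose symbol begins with BGLU or SCPL and a number, together with *PYK10*, which is another name of *BGLU23*. The rule found 50 probe sets for 50 genes, of which 48 had values, 19 BGLU and 29 SCPL genes, among 21754 genes or probe sets tested. *BGLU31* and *BGLU32* had no values and were not analysed here. Each of the 48 genes had a single probe set, so no choice between probe sets was needed.

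Both families work on small molecules that plants store as conjugates. Beta-glucosidases remove glucose from glycosides such as glucosinolates, coumarins, flavonols, monolignol glucosides and the glucose ester of abscisic acid (ABA), and in many cases the freed molecule is the active one. The glucoside and the enzyme are often kept in separate compartments, as with *PYK10* in the ER body, a compartment derived from the endoplasmic reticulum. Serine carboxypeptidase-like proteins share the fold of peptidases, and some of them work instead as acyltransferases that use glucose esters as donors, such as the sinapoyltransferases that make sinapoylmalate and sinapoylcholine.

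Seedlings were 2 weeks old, and their aerial parts were taken after growth at 22 °C under 16 h light and 8 h dark on half-strength medium with 1% sucrose. The 2 *aln-1* samples came from a T-DNA insertion line of *ALN*, the gene of allantoinase, which hydrolyses allantoin in purine breakdown, and the 2 wild-type (WT) samples were Col-0. The comparison asks which transcripts differ when allantoinase is mutated. A single mutant line was used, and nothing in the labels says whether replicates were separate cultures, so p-values measure only the spread between these samples, which may be technical.

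The values are normalized scores as the authors deposited them. They look logarithmic, with values below 0, but neither their scale nor a log base is stated. Differences are therefore *aln-1* minus WT in deposited units and are not turned into fold changes. Array medians were 0.155 and 0.157 in *aln-1*, against 0.174 and 0.174 in WT, and all values lay between -1.01 and 3.08. Arrays of one genotype correlated at 0.981 (*aln-1*) and 0.987 (WT) over all features, and arrays of different genotypes at 0.901 to 0.947. *ALN* itself had values of -0.05 and 0.01 in *aln-1*, against 0.37 and 0.44 in WT, and fell by 0.43 (limma adjusted p = 0.0116), and where its probe set lies relative to the insertion is not stated. Of the leaf markers, 1 of 8 was listed with a single gene and had values, *RCA* (Rubisco activase), which lay above 99.6% of features in *aln-1* and above 99.9% in WT. Its values were 2.52 and 2.39 in *aln-1*, against 2.77 and 2.72 in WT (difference -0.29, limma adjusted p = 0.039). Of the root markers, 1 of 10 could be used, *EXPA7*, an expansin of root hairs, at -0.10 and 0.00 in *aln-1*, against -0.28 and -0.32 in WT (difference 0.25, limma adjusted p = 0.0431). *EXPA7* was dim, above 38.2% of features in *aln-1* and above 18.8% in WT. Of 8 seed storage markers none could be used.

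Members of both families changed in *aln-1*. Among BGLU genes, *BGLU40*, *BGLU25*, *BGLU42* and *BGLU16* were higher in *aln-1* and *BGLU43* was lower, with differences between 0.37 and 0.71 for those that rose and of -0.77 for *BGLU43*. Among SCPL genes, *SCPL42* and *SCPL48* were higher, with differences of 0.91 and 0.45, and *SCPL34* and *SCPL35* were lower, with differences of -0.51 and -0.61. In these whole-tissue samples, fewer cells of a type and less RNA per cell cannot be told apart.

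Of all features tested, 7.42% were called higher and 8.17% lower at an adjusted p under 0.05 (limma, Benjamini-Hochberg over all 21754). For BGLU genes the shares were 4 of 19 (21.05%) higher and 1 of 19 (5.26%) lower, so that the share called higher was above the background and the share called lower below it. For SCPL genes they were 2 of 29 (6.90%) in each direction, near the background. At an unadjusted p under 0.05 there were 8 BGLU genes, 9 SCPL genes and 7674 features in all. No test was made of the families as lists, and a few genes decide each share.

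The median difference was 0.04 for BGLU genes (quartiles -0.12 and 0.36) and -0.05 for SCPL genes (quartiles -0.15 and 0.02), against -0.03 over all features. The medians without regard to sign were 0.20, 0.08 and 0.10 for BGLU genes, SCPL genes and all features. Replicates of BGLU genes were also farther apart, with a median gap between *aln-1* arrays of 0.13, against 0.06 over all features, and between WT arrays of 0.10, against 0.05 over all features. Over all 21754 features, 8689 differences were above 0 and 13065 below 0. Differences were above 0 in 11 BGLU genes and below 0 in 8, although *BGLU41* among those below 0 lay above 0 after quantile normalization. They were above 0 in 9 SCPL genes and below 0 in 20, of which *SCPL28*, *SCPL30*, *SCPL38* and *SCPL45* lay above 0 after quantile normalization, while *SCPL29* then lay below 0. These 6 genes differed by at most 0.03 between the genotypes.

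**Figure D1:**
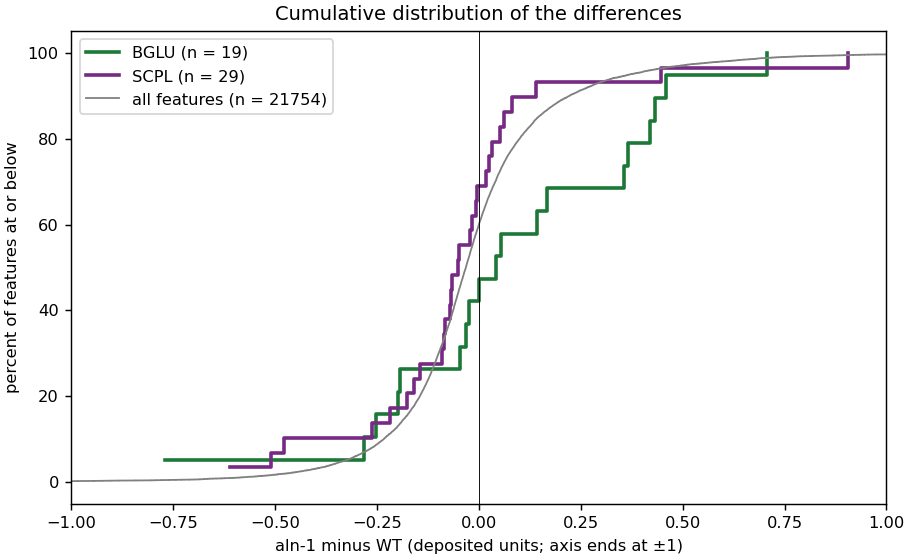
Cumulative percent of features at or below each difference, *aln-1* minus WT in deposited units, for the 19 BGLU genes, the 29 SCPL genes and all 21754 features, with the axis ending at ±1. The SCPL curve runs near that of all features except at its ends, while the upper part of the BGLU curve is shifted to the right, with an upper quartile of 0.36.

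Arrays of the 2 genotypes did not overlap, with both *aln-1* arrays above both WT arrays, in 7 of 19 BGLU genes and 5 of 29 SCPL genes, against 25.4% of all features. Both *aln-1* arrays lay below both WT arrays in 6 BGLU and 12 SCPL genes, against 41.4% of all features. The genotypes overlapped in 6 BGLU and 12 SCPL genes. Calls were more frequent among brighter features. Of features whose mean over the arrays was above the median of such means, 20.2% were called in either direction, and of the others 11.0%. In the brighter set were 10 BGLU genes, 4 of them called, and 11 SCPL genes, 3 of them called, and in the dimmer set 9 BGLU genes with 1 call and 18 SCPL genes with 1 call. Below 20% of features in both genotypes lay 2 BGLU and 9 SCPL genes.

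**Figure D2:**
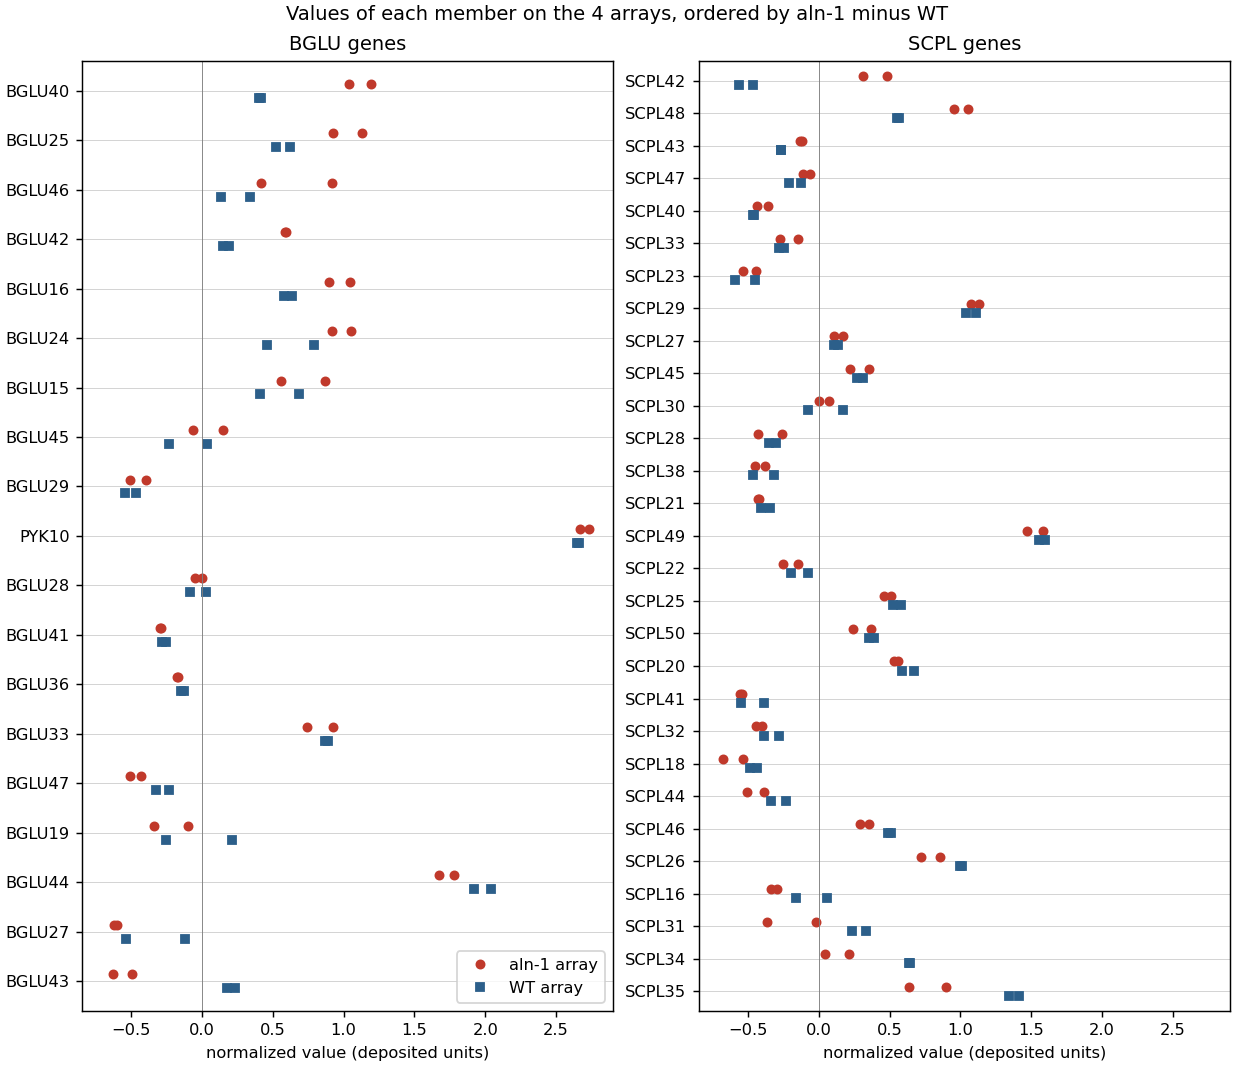
Normalized value (deposited units) of each BGLU gene (left) and SCPL gene (right) on the 2 *aln-1* arrays (circles) and the 2 WT arrays (squares), in the order of the difference between genotypes. *BGLU40* and *SCPL42* at the top and *BGLU43* and *SCPL35* at the bottom have *aln-1* and WT arrays well apart. Of the genes between them, *BGLU25*, *BGLU42*, *BGLU16*, *SCPL48* and *SCPL34* were also called. Arrays of the genotypes overlap in 6 BGLU and 12 SCPL genes.

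*BGLU40* (AT1G26560) had the largest positive difference of its family. Its values were 1.04 and 1.19 in *aln-1*, against 0.40 and 0.42 in WT, so that the *aln-1* arrays were both far above the WT arrays. The difference was 0.71 with an SE of 0.06 (limma adjusted p = 0.00698). *BGLU25* (AT3G03640) had 0.92 and 1.13 in *aln-1*, against 0.52 and 0.62 in WT, a difference of 0.46 with an SE of 0.08 (limma adjusted p = 0.0278). The *aln-1* arrays of *BGLU25* were 0.21 apart, more than is usual among BGLU genes, where the median gap between *aln-1* arrays was 0.13.

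*BGLU42* (AT5G36890), which hydrolyses the coumarin glucoside scopolin in roots and acts with the transcription factor *MYB72* in the response to low iron and in induced systemic resistance, had the closest *aln-1* replicates of the called members. Its values were 0.59 and 0.59 in *aln-1*, against 0.15 and 0.19 in WT. The difference was 0.42 with an SE of 0.04 (limma adjusted p = 0.00946). *BGLU16* (AT3G60130) had 0.89 and 1.04 in *aln-1*, against 0.58 and 0.63 in WT, without overlap. Its difference of 0.37, with an SE of 0.06, had a limma adjusted p of 0.0262.

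*BGLU43* (AT3G18070) was the 1 BGLU gene called lower. It had -0.63 and -0.49 in *aln-1*, against 0.18 and 0.23 in WT, and the difference was -0.77 with an SE of 0.06 (limma adjusted p = 0.00608). Its *aln-1* mean lay above only 3.8% of features, near the low end of the array, while its WT mean lay above 51.9%.

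Among SCPL genes, *SCPL42* (AT5G42240) had the largest difference of all 48 members. Its values were 0.48 and 0.31 in *aln-1*, against -0.46 and -0.56 in WT, a difference of 0.91 with an SE of 0.07 (limma adjusted p = 0.00613). Here the WT mean was the one near the low end, above 3.6% of features, and the *aln-1* mean lay above 62.5%. *SCPL48* (AT3G45010) was measured well above the low end in both genotypes, with 0.96 and 1.06 in *aln-1*, against 0.55 and 0.57 in WT. The difference was 0.45 with an SE of 0.05 (limma adjusted p = 0.0112).

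*SCPL35* (AT5G08260) and *SCPL34* (AT5G23210) were lower in *aln-1*. *SCPL35* had 0.90 and 0.63 in *aln-1*, against 1.42 and 1.34 in WT, and the difference was -0.61 with an SE of 0.10 (limma adjusted p = 0.0203). *SCPL34* had 0.21 and 0.05 in *aln-1*, against 0.64 and 0.64 in WT, and the difference was -0.51 with an SE of 0.07 (limma adjusted p = 0.0136). In both genes the WT arrays were closer to each other than the *aln-1* arrays were, and the genotypes did not overlap.

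Most of the 9 calls were lost when a WT array was left out. With WT replicate 1 left out none of them was still called, and among all features 71 were then called higher and 61 lower. With WT replicate 2 left out *BGLU43* and *SCPL42* were still called, with 288 and 256 calls in all. Without *aln-1* replicate 2 the call of *BGLU16* was lost (limma adjusted p = 0.0536), and without *aln-1* replicate 1 all 9 were kept. The direction of each of the 9 stayed the same whichever array was left out, with differences of 0.63 to 0.78 for *BGLU40*, -0.84 to -0.70 for *BGLU43*, 0.82 to 0.99 for *SCPL42* and -0.75 to -0.48 for *SCPL35*.

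**Figure D3:**
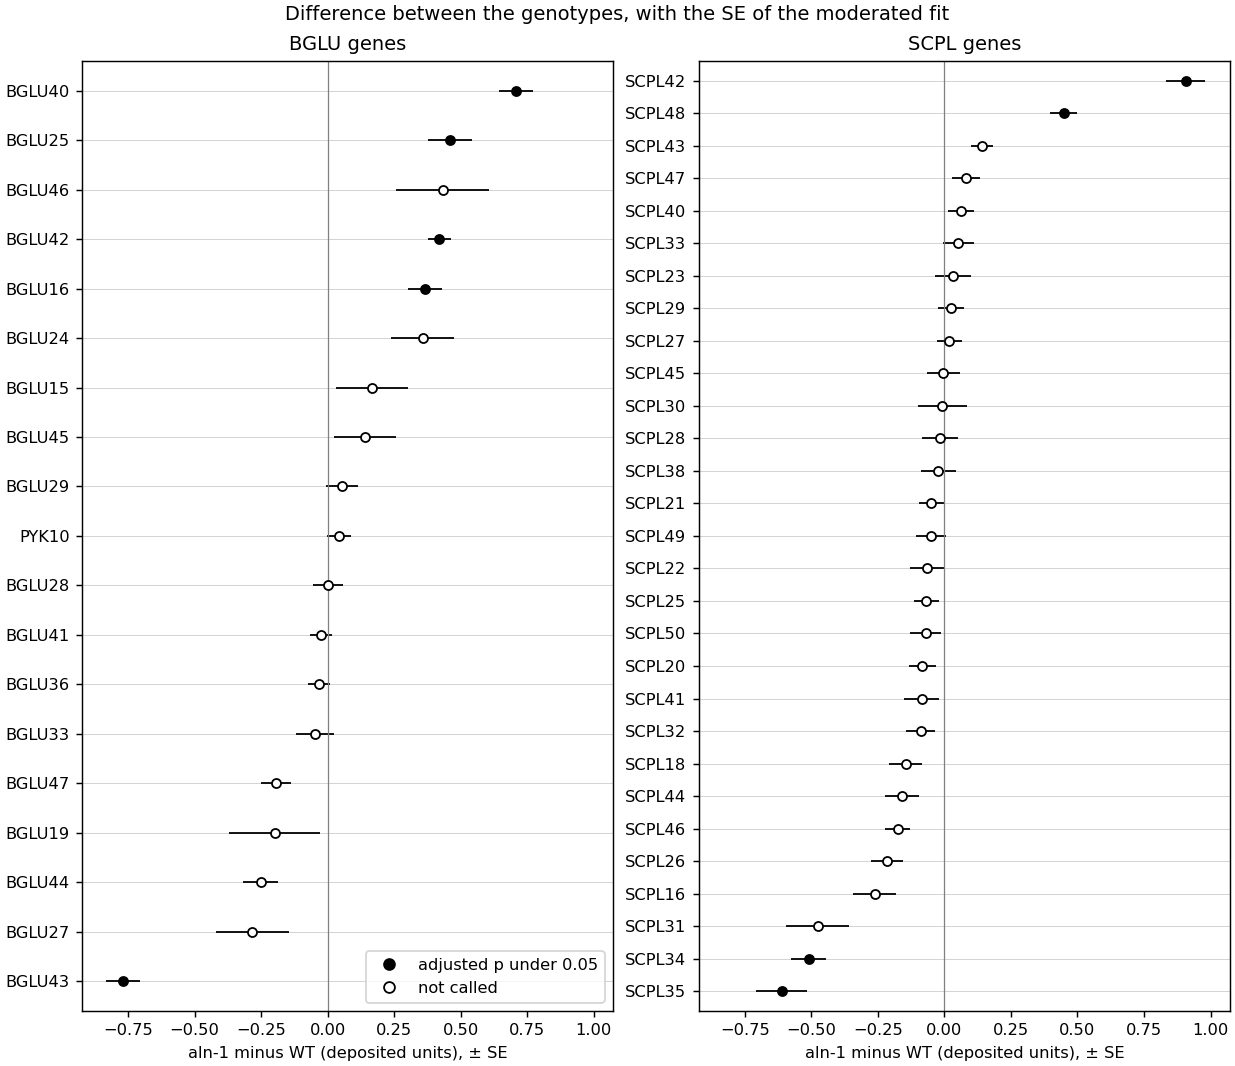
Difference between genotypes, *aln-1* minus WT in deposited units, with its SE from limma as a bar, for each BGLU gene (left) and SCPL gene (right). Filled points are the 5 BGLU and 4 SCPL genes with an adjusted p under 0.05, and open points are the 14 and 25 that were not called.

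*PYK10* (AT3G09260), the abundant beta-glucosidase and myrosinase of ER bodies, did not pass the test. It had 2.67 and 2.73 in *aln-1*, against 2.65 and 2.66 in WT, a difference of 0.04 with an SE of 0.05 (limma adjusted p = 0.555). The arrays did not overlap, but the gap was smaller than that between the *aln-1* replicates. *PYK10* lay above 99.9% of features in *aln-1* and above 99.8% in WT, close to the array maxima of 2.89 and 2.85 in *aln-1*, against 3.08 and 2.94 in WT. How far a change could be seen at that end of the scale was not tested.

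The beta-glucosidases that release ABA from its glucose ester are *BGLU18* in the endoplasmic reticulum and *BGLU33* in the vacuole. *BGLU18* had no probe set listed with that gene alone and was not analysed here. *BGLU33* (AT2G32860) had 0.93 and 0.74 in *aln-1*, against 0.87 and 0.89 in WT. The WT values lay between the 2 *aln-1* values, and the difference was -0.05 with an SE of 0.07 (limma adjusted p = 0.679). Leaving out single arrays moved that difference between -0.14 and 0.05.

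*BGLU45* and *BGLU46* hydrolyse monolignol glucosides, and *BGLU47* is their close relative. *BGLU46* had 0.42 and 0.92 in *aln-1*, against 0.14 and 0.34 in WT, so that the difference of 0.43 came with an SE of 0.17 (limma adjusted p = 0.151). Its *aln-1* arrays were farther apart than those of any called member, and with *aln-1* replicate 1 left out it was called (limma adjusted p = 0.0172). *BGLU45* had -0.07 and 0.15 in *aln-1*, against 0.04 and -0.23 in WT, with overlap. *BGLU47* had -0.51 and -0.43 in *aln-1*, against -0.23 and -0.33 in WT, a difference of -0.19 (limma adjusted p = 0.0786).

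Of the other BGLU genes, *BGLU24* and *BGLU44* came nearest to a call. *BGLU24* had 0.92 and 1.05 in *aln-1*, against 0.46 and 0.79 in WT, a difference of 0.36 with an SE of 0.12 (limma adjusted p = 0.102). *BGLU44*, an enzyme with beta-mannosidase activity, had 1.78 and 1.67 in *aln-1*, against 1.92 and 2.04 in WT, a difference of -0.25 with an SE of 0.07 (limma adjusted p = 0.0627). In *BGLU24* the WT replicates were 0.33 apart, and in *BGLU44* the replicates were 0.11 apart in *aln-1* and 0.12 apart in WT. The remaining 7, *BGLU15*, *BGLU19*, *BGLU27*, *BGLU28*, *BGLU29*, *BGLU36* and *BGLU41*, had differences between -0.28 and 0.17 and limma adjusted p of 0.212 or more.

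Among SCPL genes that were not called, 5 had a limma adjusted p under 0.1. *SCPL31* had -0.02 and -0.36 in *aln-1*, against 0.33 and 0.24 in WT, a difference of -0.48 with an SE of 0.12 (limma adjusted p = 0.0562). Its *aln-1* arrays were 0.34 apart. *SCPL46*, *SCPL26* and *SCPL16* had differences of -0.18, -0.22 and -0.26 (limma adjusted p = 0.0634, 0.0691 and 0.086), and in all 3 both *aln-1* arrays lay below both WT arrays. *SCPL43* was the 1 of these above 0, with -0.13 and -0.12 in *aln-1*, against -0.27 and -0.27 in WT (limma adjusted p = 0.0809).

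The other 20 SCPL genes had differences between -0.16 and 0.08. *SCPL49*, named in the gene table as carboxypeptidase Y, had 1.58 and 1.47 in *aln-1*, against 1.55 and 1.60 in WT, with overlap and a difference of -0.05. *SCPL29* had 1.07 and 1.13 in *aln-1*, against 1.04 and 1.11 in WT, also with overlap. *SCPL18* and *SCPL44* had the largest negative differences of these, -0.15 and -0.16, and *SCPL47* the largest positive one, 0.08, and in all 3 the genotypes did not overlap. The sinapoyltransferases *SNG1* (*SCPL8*) and *SNG2* (*SCPL19*) had no probe set listed with that gene alone and were not analysed here.

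Many genes of both families sit next to relatives on the chromosome. With neighbours defined as family genes with at most 10 other genes between them, the gene table (assembly TAIR10.1) held 19 tandem clusters, of which 7 had 2 or more measured members, 3 had 1 and 9 had none. The 9 include the large SCPL group around *SNG1* on chromosome 2, the *SCPL2* to *SCPL6* group on chromosome 1, the pair *BGLU21* and *BGLU22*, whose 1 probe set is listed with both genes, and the pair *TGG1* and *TGG2*, the classical myrosinases. The probe set shared by *BGLU21* and *BGLU22* had 1.80 and 1.96 in *aln-1*, against 1.30 and 1.62 in WT, and cannot be assigned to either gene. The 7 clusters held 15 members in 8 neighbouring pairs. Each SE given for a pair comes from the difference between the 2 genes within each array. Unlike the other SE, it is not moderated by limma. In 3 pairs the genotype differences of the 2 genes had opposite signs, but this count rests in part on differences near 0. With single arrays left out, the difference of *SCPL23*, opposite to *SCPL22*, ran from -0.0408 to 0.107. After quantile normalization that of *SCPL28* was 0.0253, opposite to its neighbour *SCPL26*.

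*SCPL42* and *SCPL41* on chromosome 5 were the pair farthest apart. *SCPL41* had -0.56 and -0.54 in *aln-1*, against -0.39 and -0.55 in WT, a difference of -0.09, so that the difference of *SCPL42* exceeded that of its neighbour by 0.99 with an SE of 0.10. *BGLU16* and *BGLU27* on chromosome 3, in the cluster that also holds *DIN2*, had differences of opposite sign. *BGLU27* had -0.62 and -0.60 in *aln-1*, against -0.12 and -0.54 in WT, with a difference of -0.28 (limma adjusted p = 0.212). Its *aln-1* mean lay above only 2.1% of features. The 2 differences of that pair were 0.65 apart, with an SE of 0.25.

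*BGLU43* and *BGLU44*, side by side on chromosome 3, both lay below WT. The difference of *BGLU44* was 0.52 above that of *BGLU43*, with an SE of 0.13. *BGLU46* and *BGLU45* on chromosome 1 both lay above WT, with differences 0.29 apart and an SE of 0.28. *SCPL28* and *SCPL26* on chromosome 2 had differences of -0.02 and -0.22, 0.20 apart with an SE of 0.15. *SCPL23* and *SCPL22*, also on chromosome 2, were 0.10 apart with an SE of 0.02, with *SCPL23* at 0.03 and *SCPL22* at -0.07. In both genes the genotypes overlapped, and their own limma SE were 0.07 and 0.06 (limma adjusted p = 0.763 and 0.506).

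The cluster on chromosome 2 with *BGLU15*, *BGLU28*, *BGLU29*, *BGLU17* and *PEN2* had 3 measured members and no call. *BGLU15*, which hydrolyses flavonol bisglycosides, had 0.56 and 0.87 in *aln-1*, against 0.41 and 0.68 in WT, with overlap. *BGLU28*, which acts in glucosinolate breakdown under sulfur deficiency, differed by 0.00 with an SE of 0.06, and *BGLU29* by 0.05 with an SE of 0.06. *BGLU15* and *BGLU28* were 0.17 apart with an SE of 0.20, and *BGLU29* and *BGLU28* 0.05 apart with an SE of 0.10.

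With 2 arrays against 2, an exact permutation test of a pair (two-sided, of the difference between the 2 genes within each array) cannot go below p = 0.333. The 5 pairs of *SCPL42*, *BGLU16*, *BGLU44*, *SCPL28* and *SCPL23* with their neighbours reached that smallest p, with arrays of the genotypes not overlapping, and the 3 others had p of 0.667 to 1. The design therefore allowed no pair to pass a threshold of 0.05, and this test says nothing of whether neighbours differ, so the pairs are described by their values and SE only.

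**Figure D4:**
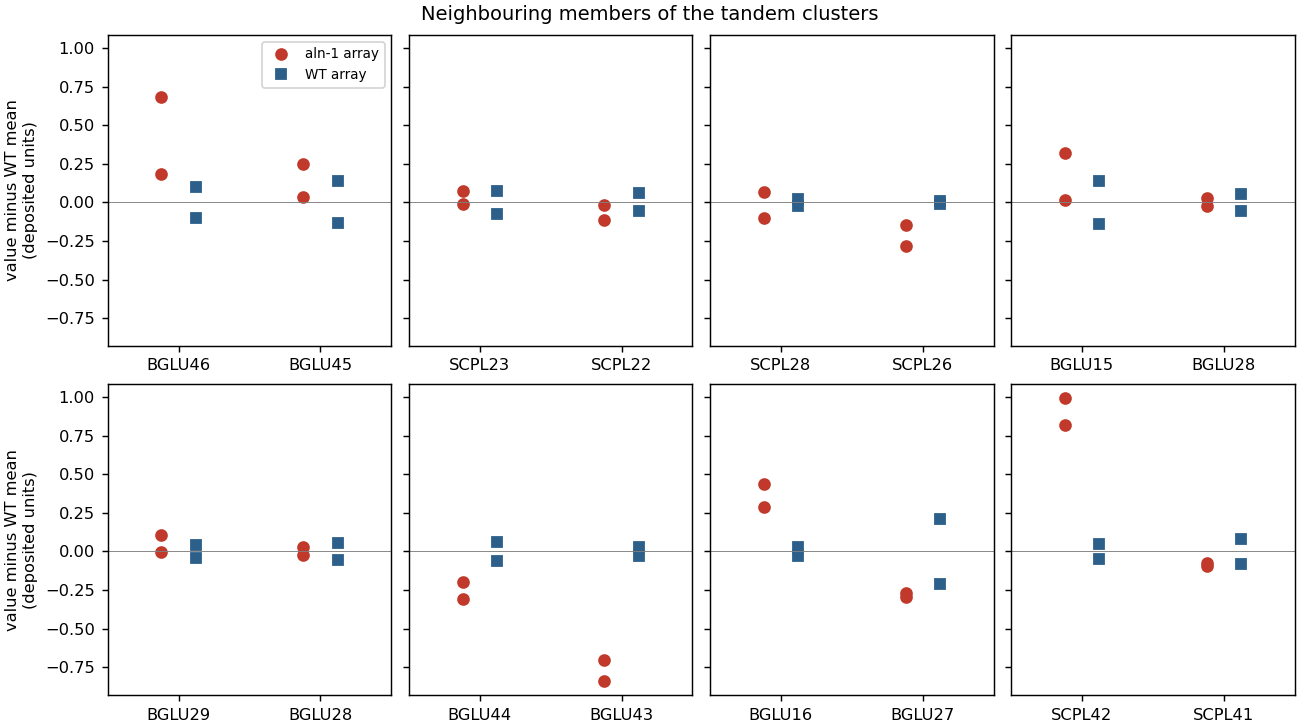
Value of each array minus the WT mean of that gene (deposited units) for the 8 pairs of neighbouring family members, with *aln-1* arrays as circles and WT arrays as squares. The *aln-1* arrays of *SCPL42* lie at 0.82 and 0.99 while those of its neighbour *SCPL41* lie at -0.09 and -0.08.

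Of 15 genes listed for the ER body and the *PYK10* complex, 6 besides *PYK10* had a probe set listed with 1 gene and with values. Of these, 4 (*NAI1*, *NAI2*, *JAL33* and *JAL34*) were called higher and none lower. The background was 7.42% of all features called higher, and 20.2% called in either direction among the brighter features, to which all 6 belong. Their median difference was 0.31, against -0.03 over all features, and the list itself was not tested. *NAI1*, the basic helix-loop-helix factor that ER body formation needs, had 0.97 and 1.16 in *aln-1*, against 0.37 and 0.51 in WT, a difference of 0.62 (limma adjusted p = 0.0157). *NAI2*, a component of ER bodies, had 1.84 and 2.07 in *aln-1*, against 1.18 and 1.44 in WT, a difference of 0.64 (limma adjusted p = 0.0276). Of the 4 measured jacalin-related lectins of the *PYK10* complex, 2 were called higher, *JAL33* by 0.26 (limma adjusted p = 0.0332) and *JAL34* by 0.36 (limma adjusted p = 0.0454, and 0.0634 after quantile normalization).

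Of the 2 listed genes that were not called, *JAL22* had 1.72 and 1.89 in *aln-1*, against 1.51 and 1.59 in WT (limma adjusted p = 0.0687), and *JAL23* overlapped. None of the 4 calls was kept without WT replicate 1 (limma adjusted p of 0.117 to 0.209) or without WT replicate 2 (0.0637 to 0.104), and without *aln-1* replicate 2 only *NAI1* kept its call. *EXPA7*, the 1 measured root marker, was called higher in the same samples, and *RCA*, the 1 measured leaf marker, was called lower, with a difference of -0.29. Their part in these differences was not tested.

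**Figure D5:**
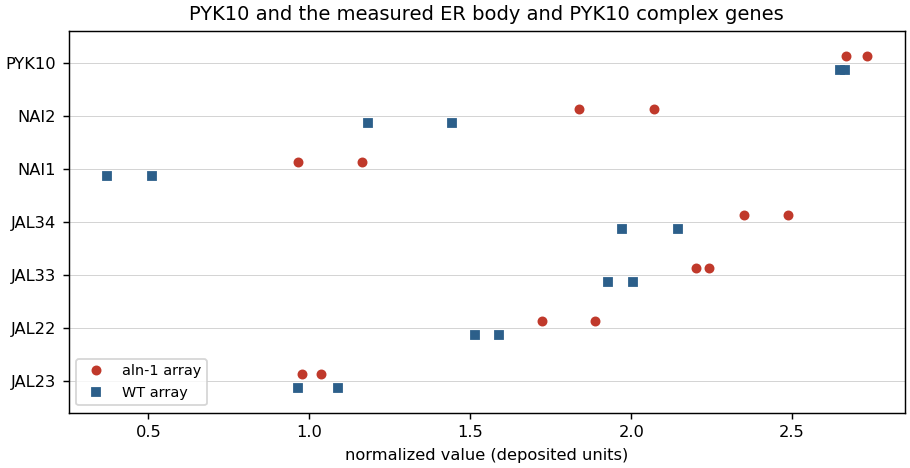
Normalized value (deposited units) of *PYK10* and the 6 measured ER body and *PYK10* complex genes on the 2 *aln-1* arrays (circles) and the 2 WT arrays (squares), to be read within each gene. *NAI1*, *NAI2*, *JAL33* and *JAL34* have both *aln-1* arrays above both WT arrays and were called, while *PYK10* lies near the upper end of the scale in all 4 arrays.

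The glucosides on which these enzymes act are made by pathways of which few genes could be measured. As background for the lists below, 7.42% of all features were called higher and 8.17% lower. Among the brighter features 20.2% were called in either direction, and among the dimmer ones 11.0%. The lists themselves were not tested. For glucosinolate synthesis 4 of 23 listed genes were measured, none was called higher and 2 were called lower, with a median difference of -0.24. These were *BCAT4*, which starts methionine chain elongation, at 2.02 and 1.79 in *aln-1*, against 2.35 and 2.39 in WT (difference -0.47, limma adjusted p = 0.0267), and AT2G31790, the glucosyltransferase *UGT74C1*, with a difference of -0.40 (limma adjusted p = 0.036). *UGT74B1* and *AOP3* had differences of 0.08 and -0.08 and were not called. Of 13 genes listed for glucosinolate breakdown none was measured in this sense.

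For phenylpropanoids, sinapate esters and monolignol glucosides, 7 of 20 listed genes were measured, 2 higher and 2 lower, with a median difference of -0.08. *UGT72E1* and *UGT72E3* glucosylate phenylpropanoid aldehydes and monolignols, while *BGLU45* and *BGLU46* hydrolyse monolignol glucosides. *UGT72E1* had 0.53 and 0.46 in *aln-1*, against 0.95 and 1.07 in WT, a difference of -0.52 (limma adjusted p = 0.0119), and *UGT72E3* had -0.02 and 0.06 in *aln-1*, against -0.20 and -0.24 in WT, a difference of 0.24 (limma adjusted p = 0.0389). *ALDH2C4*, the aldehyde dehydrogenase that makes sinapate and ferulate, was lower, with a difference of -0.42 (limma adjusted p = 0.0104). *UGT84A3*, a glucosyltransferase that forms the glucose esters of hydroxycinnamates, was higher by 0.27 (limma adjusted p = 0.0204).

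For ABA synthesis, conjugation and breakdown, 4 of 15 listed genes were measured and none was called in either direction, with a median difference of -0.05. All 4 are glucosyltransferases of the group that forms the ABA glucose ester, the substrate of *BGLU33*. *UGT71B8* had a difference of 0.24 (limma adjusted p = 0.0549, but 0.0345 after quantile normalization, 0.0467 after median centring and 0.0364 without *aln-1* replicate 1, so that it was called higher in these), AT3G21790 of -0.20 (adjusted p = 0.0796), *UGT71B6* of -0.24 (adjusted p = 0.142) and *UGT71C5* of 0.10 (adjusted p = 0.291). For flavonoids and anthocyanins, 6 of 15 were measured, 1 was higher and none lower, with a median difference of -0.02. The 1 call was *UGT78D1*, the flavonol rhamnosyltransferase, at 1.14 and 1.20 in *aln-1*, against -0.37 and -0.42 in WT, a difference of 1.56 (limma adjusted p = 0.00153), which stayed called whichever array was left out. The WT mean of *UGT78D1* was toward the low end, above 11.0% of features, and its *aln-1* mean lay above 89.9%. *DFR*, AT4G14090 and *UF3GT* had differences between -0.15 and 0.04 and were not called. The calls of *BCAT4*, AT2G31790, *UGT72E1*, *UGT72E3*, *ALDH2C4* and *UGT84A3*, like those of *ALN*, *RCA* and *EXPA7*, were lost without either WT array (limma adjusted p of 0.0561 to 0.212), and those of AT2G31790, *UGT72E3*, *UGT84A3*, *RCA* and *EXPA7* also without *aln-1* replicate 2.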

How the data were processed

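RNA of 2 *aln-1* and 2 WT samples was hybridised to Affymetrix ATH1 arrays (250 ng RNA, 3' IVT Express). The authors passed existing raw arrays through SuperNORM, which fits a lognormal distribution to each array, and deposited 1 score for each probe set and array. Neither the base of the logarithm nor the probe summary step is given in the sources used here. The deposited table also holds p-values of the authors' ANOVA, which were not used. It has 22810 probe sets, of which 64 controls were left out and 842 others had no values. The platform annotation lists 13513 probe sets with 1 gene, 503 with several and 8730 with none, and 13436 were matched to the gene table of TAIR10.1. The deposited series table held the same scores, with a largest difference of 4.6e-08.

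Where a gene had several probe sets, the one with the highest mean was taken, and a probe set with no gene or more than 1 entered the fit unnamed. Genotypes were compared over all 21754 features by limma 3.58.1 (lmFit, eBayes; R version 4.3.3) on genotype alone, since the ANOVA's second factor is unnamed, and with Benjamini-Hochberg adjustment (call at an adjusted p under 0.05, prior degrees of freedom 3.11). The script was tested on simulated data. The number of arrays limits the precision. Members, gene lists and tests were chosen with earlier results of these data known. Named in full were all called members with arrays not overlapping, *PYK10* and *BGLU33*, and *BGLU18*, *BGLU21*, *BGLU22*, *SCPL8* and *SCPL19* where measured. Other members were described by family or cluster, and up to 4 genes of each list were named by smallest p. *JAL22*, *JAL23*, *UGT72E2*, the probe set of *BGLU21* and *BGLU22*, and the per-array values of members that were not called, were given after their values had been seen. Alternatives were quantile normalization, median centring, a trend in eBayes, the mean of probe sets, leaving out dim features, probe sets of the _s_ and _x_ classes or single arrays, the series table, and a replicate block. No sequences or coordinates are shown.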

Additional observations from a re-analysis of the deposited data

How the results depend on the processing

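All 9 called members kept their call and direction under quantile normalization, median centring, a trend in eBayes, the mean of probe sets, without _s_ and _x_ probe sets and with the series table. With the dimmest 33.3% of features left out *BGLU43* was not tested, which left 0 BGLU genes called lower, and *SCPL46* was added. Reversed differences were 0.00915 for *BGLU41*, -0.000596 for *SCPL29*, 0.0113 for *SCPL45*, 0.0216 for *SCPL30*, 0.0253 for *SCPL28* and 0.0202 for *SCPL38* after quantile normalization, and 0.0140 for *SCPL45*, 0.0103 for *SCPL30* and 0.00102 for *SCPL28* after median centring, and the cause was not tested. *EXPA7* had a limma adjusted p of 0.0508 with the replicate block, and *JAL34* of 0.0634 after quantile normalization. *UGT71B8* was called higher after quantile normalization and median centring.

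Leaving out 1 array in turn, which also leaves fewer samples for the test and takes the lone array to vary like the others, gave 0 to 5 BGLU genes higher and 0 to 2 lower, 0 to 2 SCPL genes higher and 0 to 4 lower, and 71 to 2114 features higher and 61 to 2372 lower in all. Differences that changed sign ranged from -0.434 to 0.0367 for *BGLU19*, -0.0552 to 0.0578 for *BGLU28*, -0.000779 to 0.109 for *BGLU29*, -0.140 to 0.0462 for *BGLU33*, -0.0408 to 0.107 for *SCPL23*, -0.0141 to 0.0483 for *SCPL27*, -0.1002 to 0.0659 for *SCPL28*, -0.0104 to 0.0595 for *SCPL29*, -0.133 to 0.117 for *SCPL30*, -0.0123 to 0.116 for *SCPL33*, -0.0968 to 0.0517 for *SCPL38*, -0.0718 to 0.0635 for *SCPL45*, -0.107 to 0.00540 for *SCPL49* and -0.165 to 0.00833 for *AOP3*. None of these genes was called. Without *aln-1* replicate 1, *BGLU44*, *BGLU46*, *SCPL26* and *SCPL31* were added to the calls.

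Over all features, same-numbered arrays of the genotypes did not deviate together (correlation 0.04), so the numbers were not taken as pairs. Some genes described here differed from this. In *NAI1*, *NAI2*, *JAL34*, *BGLU15*, *BGLU24* and *BGLU46* replicate 2 lay above replicate 1 in both genotypes, but not in *BGLU33* or *BGLU45*. A replicate block lowered the SE of *NAI2* from 0.116 to 0.054 and of *BGLU46* from 0.174 to 0.083. It raised that of *BGLU42* from 0.044 to 0.054. With the replicate number as a block, 6 BGLU genes were called higher and 1 lower, 2 SCPL genes higher and 3 lower, and 1918 features higher and 1854 lower in all. The 9 calls were kept, with *BGLU24*, *BGLU46* and *SCPL31* added.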

Other observations

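*ATA27*, which the gene table also lists as *BGLU20*, was outside the rule because the annotation gives it another symbol. It had 0.71 and -0.19 in *aln-1*, against -0.25 and -0.28 in WT, a difference of 0.52 with an SE of 0.29 (limma adjusted p = 0.254). Of its 2 *aln-1* arrays, 1 lay near the WT arrays.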
